A study of Homo sapiens with 4 samples.

Results

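The 4 GAGE genes GAGE4, GAGE12G, GAGE12C and GAGE2A were described through every probe that the platform annotation pairs with 1 of these symbols. There were 5 such probes, 2 for GAGE4 (ILMN_1715638 and ILMN_2195385) and 1 each for GAGE12G (ILMN_1664660), GAGE12C (ILMN_3243851) and GAGE2A (ILMN_3244168), out of 30111 probes of 20044 genes with a single symbol. The annotation held 13 probes of 12 GAGE genes in all, and the remaining 8 genes are set beside the 4 below. RNA came from SW1990 and Panc-1, both established human pancreatic cancer cell lines, whose cells had been separated by magnetic sorting into CD166+ and CD166- populations. CD166 is the adhesion molecule encoded by ALCAM. The labels give no treatment and no genetic change for any population, and the CD166- cells were those left after depletion of the labelled cells. Each of the 4 populations was measured on 1 Human HT-12v4 Illumina bead array with 47315 probes, so no comparison between 2 populations has a replicate, and no p-value was computed for one.

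GAGE genes are cancer-testis antigens. They lie in a tandem array of near-identical copies on the short arm of the X chromosome, and in healthy adults their transcripts are found mainly in male germ cells, while most somatic tissues keep them silent, with DNA methylation of the promoters. Tumours of several kinds express them again, and peptides of GAGE proteins presented by HLA molecules are recognised by T cells. The function of the proteins, which are small and intrinsically disordered, is not well understood.

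The stretch around the transcription start is printed because it is the regulatory sequence that the copies share. GAGE10, whose probe was undetected on every array, is printed beside it as the copy that differs most. Whether that difference bears on the GAGE10 signal was not tested. The RefSeq table of promoters (GRCh38.p14) held 13 entries of 12 GAGE symbols, all on the plus strand of chromosome X, each with 250 bases before and 50 after the annotated start. GAGE4 is listed there only as a synonym of GAGE1. The GAGE12C stretch is chrX:49531927-49532206 and the GAGE10 stretch is chrX:49303396-49303675, each cut to 30 bases after the start. Capitals mark TCCCGCC, a core of sites bound by E2F6, and CACGTG, the E-box bound by MGA with MAX.
GAGE12C: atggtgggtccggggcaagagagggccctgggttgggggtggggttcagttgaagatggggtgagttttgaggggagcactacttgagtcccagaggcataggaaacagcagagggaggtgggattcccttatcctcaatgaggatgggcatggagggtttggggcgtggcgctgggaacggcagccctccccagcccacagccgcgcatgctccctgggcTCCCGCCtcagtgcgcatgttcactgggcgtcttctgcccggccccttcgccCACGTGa
GAGE10: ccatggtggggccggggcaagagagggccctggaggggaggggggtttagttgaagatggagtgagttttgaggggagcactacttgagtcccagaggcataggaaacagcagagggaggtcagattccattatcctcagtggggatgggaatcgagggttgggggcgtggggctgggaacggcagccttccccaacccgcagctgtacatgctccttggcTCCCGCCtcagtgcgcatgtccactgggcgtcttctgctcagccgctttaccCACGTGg
The 300 bases of GAGE2A, at chrX:49589246-49589545, were identical to those of GAGE12C, as were those of GAGE12D, GAGE12E, GAGE12F, GAGE12H, GAGE12J and 1 of the 2 GAGE1 entries. GAGE12G, at chrX:49570147-49570446, has a start annotated 3 bases away and was identical over the 297 shared bases. GAGE12B and GAGE13 carried a single difference, T252C, with positions counted from 1 at the first base of the GAGE12C entry. In GAGE10, 268 of 300 aligned positions were the same, 30 differed and 2 fell in a gap. TCCCGCC and CACGTG were each searched on both strands and were present in 13 of 13 GAGE entries, against 15.4% and 7.26% of all 35116 promoters, and 1.49% of all promoters held both. TATAAA was present in 0 of 13 GAGE entries and in 11.5% of all promoters. All entries but GAGE10 are nearly the same sequence, so the 13 are not independent counts. The GAGE12C entry held 13 CG dinucleotides, against a median of 14 over all promoters. Since the copies are so alike, a probe named for 1 GAGE gene may bind transcripts of several, and levels of single copies cannot be told apart here.

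The arrays differed in ways that bear on these values. The mean intensity was 413 on the SW1990 CD166+ array and 325 to 339 on the other 3, and 15565 to 16716 probes were detected, which here means a detection p-value under 0.01 against the negative controls of the same array. The 2 Panc-1 arrays correlated with each other at r = 0.989 over the 20049 probes detected on at least 1 array. The SW1990 CD166+ array correlated with SW1990 CD166- at r = 0.851, with Panc-1 CD166+ at 0.861 and with Panc-1 CD166- at 0.845. The SW1990 CD166- array correlated better with Panc-1 CD166+ (r = 0.895) and Panc-1 CD166- (r = 0.893) than with the other SW1990 array. ALCAM, the gene of the sorted antigen, was higher in CD166+ cells of both lines, at intensities of 376 against 95.4 in SW1990 and 287 against 101 in Panc-1. KRT8, KRT18, KRT19 and EPCAM, markers of epithelial cells, were detected on all 4 arrays and CDH1 on none. Of 3 leukocyte markers with a probe, PTPRC and CD3E were detected on no array and 1 was detected on each array. Of 3 endothelial markers VWF was detected on no array. In SW1990 CD166+ cells 1 endothelial marker was detected, in SW1990 CD166- cells 1, and in Panc-1 cells 0.

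All 5 probes of the 4 genes gave strong signals in SW1990 CD166+ cells and signals near background in SW1990 CD166- cells. The first GAGE4 probe, ILMN_1715638, had an intensity of 5649 in SW1990 CD166+, 88.3 in SW1990 CD166-, 251 in Panc-1 CD166+ and 74.5 in Panc-1 CD166- cells. The second GAGE4 probe, ILMN_2195385, had 5720.2, 93.1, 253 and 68.4 in the same order. The pair of probes gave the same order of arrays and lay within 10 intensity units of each other on every array but that of SW1990 CD166+ cells.
GAGE12G had an intensity of 5405 in SW1990 CD166+, 99.8 in SW1990 CD166-, 261 in Panc-1 CD166+ and 86.0 in Panc-1 CD166- cells. GAGE12C had 5865, 79.4, 223 and 75.4. GAGE2A had 1229.5, 66.8, 98.4 and 59.4. The median intensity of undetected probes lay between 69.4 and 72.5 on the 4 arrays.

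**Figure D1:**
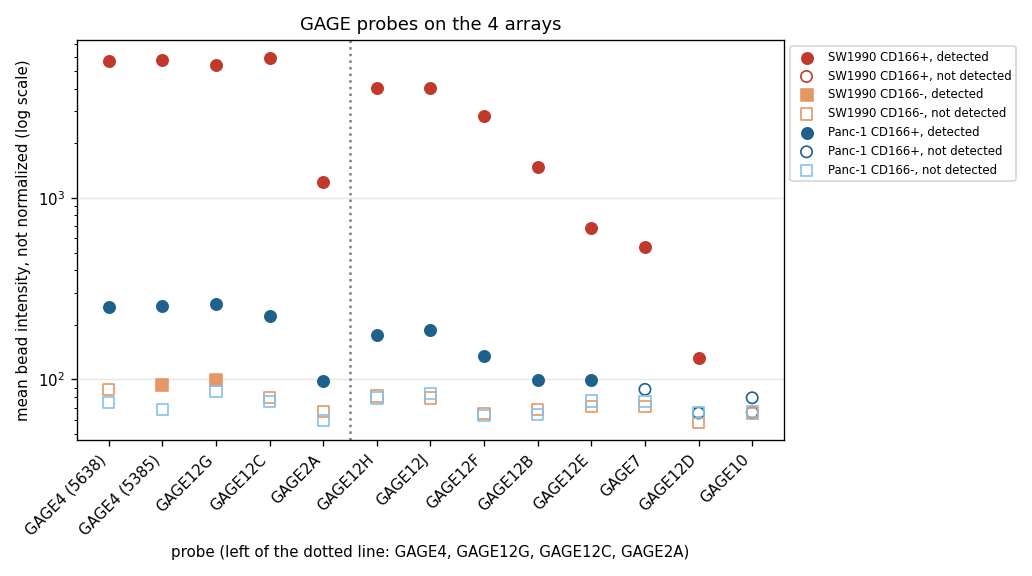
Mean bead intensity (log axis) of the 13 probes annotated to GAGE genes on each of the 4 arrays, with filled symbols for probes detected on that array (detection p-value under 0.01) and open symbols for the rest; there is 1 array a population and so no error bar, and the 2 GAGE4 probes carry the last 4 digits of their names. The red points of SW1990 CD166+ cells lie above all others for every probe but GAGE10, and the blue points of Panc-1 CD166+ cells lie second for 11 of the 12 others.

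Detection followed the same order. The 5 probes were detected on the arrays of SW1990 CD166+ cells, with a detection p-value of 0 for each, and of Panc-1 CD166+ cells, with 0.0013 to 0.0026. In SW1990 CD166- cells GAGE12G (detection p-value 0.0026) and the second GAGE4 probe (0.0052) were detected, at 99.8 and 93.1, while the first GAGE4 probe (0.0143), GAGE12C (0.0922) and GAGE2A (0.526) were not well above background. In Panc-1 CD166- cells none of the 5 was detected, and the lowest detection p-value, 0.0312, was that of GAGE12G.

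In SW1990, CD166+ cells exceeded CD166- cells by over 2-fold for 5 of 5 probes, against 12.2% of the 18210 probes detected on either array. Folds are ratios of background-corrected, quantile-normalized signals, and a side not detected was raised to the lowest signal among detected probes of its array, so that such a fold is a lower bound. GAGE12G was 80.4-fold higher (normalized signals of 4230 and 52.6) and the second GAGE4 probe 99.5-fold higher, both measured on either side. The first GAGE4 probe was at least 106-fold, GAGE12C at least 109-fold and GAGE2A at least 24.3-fold higher. The 5 had a median log2 fold of 6.64, and all probes detected on either array one of -0.03. The deposited intensities, with no background removed, gave smaller ratios, from 18.4 for GAGE2A to 73.9 for GAGE12C. In bulk RNA, fewer expressing cells and less RNA per cell cannot be told apart. Some markers of other cells moved with this difference. Of 5 fibroblast and stellate markers, COL1A1 (287 against 69.2) and PDGFRB (191 against 66.1) were also higher in SW1990 CD166+ cells, with a summed intensity of 707 against 376, while COL3A1, DCN and LUM were undetected on all 4 arrays. In Panc-1, where GAGE signals were low or undetected, the summed intensity of these markers was 763 in CD166+ and 691 in CD166- cells. There 1 of them was detected in each population. Of 5 epithelial markers, KRT18, KRT19 and EPCAM were over 2-fold higher, KRT8 was not (0.91-fold) and CDH1 was undetected. The 5 had a summed intensity of 8804 against 5401, and a summed normalized signal of 6906 against 5727. The part of either in the GAGE result was not tested.

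In Panc-1, CD166+ cells exceeded CD166- cells by over 2-fold for 4 of 5 probes, against 0.53% of the 17532 probes detected on either array. All 5 folds were lower bounds, as no probe was detected in CD166- cells. GAGE12G was at least 5.30-fold, the second GAGE4 probe at least 5.11-fold, the first at least 5.06-fold and GAGE12C at least 4.27-fold higher. GAGE2A was at least 1.07-fold higher and was not counted. The median log2 fold was 2.34, against -0.01 for all probes detected on either array. The ratios of the deposited intensities in Panc-1 ran from 1.66 for GAGE2A to 3.70 for the second GAGE4 probe.

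**Figure D2:**
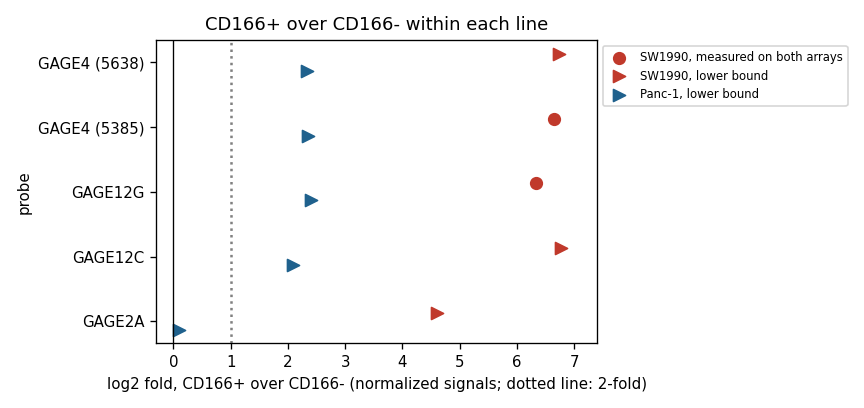
Log2 fold of CD166+ over CD166- cells for each of the 5 probes of GAGE4, GAGE12G, GAGE12C and GAGE2A in SW1990 (red) and Panc-1 (blue), from normalized signals of 1 array a population; circles are measured on both arrays and arrowheads are lower bounds. The SW1990 values run from 4.60 to 6.77 and the Panc-1 values from 0.09 to 2.41, where GAGE2A alone stays left of the dotted 2-fold line.

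The 5 probes kept a similar small share of their SW1990 CD166+ signal in Panc-1 CD166+ cells. With the median intensity of undetected probes subtracted on each array, this share was 2.24% to 3.53%, with a median of 3.19%. The same share was taken over 35 named probes of 32 genes outside the GAGE family that exceeded background by over 1000 units in SW1990 CD166+ cells and were undetected in Panc-1 CD166- cells. Those probes had a median share of 3.05% with quartiles of 2.26% and 3.79%, and 33 of 35 were detected in Panc-1 CD166+ cells. Of the 5 GAGE probes 4 lay within these quartiles. These probes were chosen for being undetected in Panc-1 CD166- cells, so their absence from that array is no result. CDKN2A, a tumour suppressor known to be deleted in Panc-1, had 2 of 3 probes that were bright in SW1990 CD166+ cells, with shares of 3.28% and 2.29%. Their intensities in SW1990 CD166+ cells were 2192 and 1171. Both were undetected in SW1990 CD166- cells as well, at 82.5 and 65.6, and the remaining probe was undetected on every array. This gene was chosen after its values were seen. When the median share was subtracted from the Panc-1 CD166+ signals, 0 of the 5 GAGE probes passed 2-fold in Panc-1, with folds of 0.756 to 1.09. The subtracted share was close to that of the GAGE probes, so this outcome follows from the shares and is no separate result. Subtraction at the lower quartile of the share left GAGE12G, at least 2.17-fold higher. Whether carry-over from the SW1990 CD166+ sample or mixed labels had a part in the Panc-1 CD166+ values, and so in the 4 calls made there, was not tested. Whether mixed labels had a part in the SW1990 calls was not tested either. Among probes detected on either array, 12.2% were over 2-fold higher and 13.1% lower in SW1990 CD166+ than in SW1990 CD166- cells. In Panc-1 these shares were 0.53% and 0.36%.

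**Figure D3:**
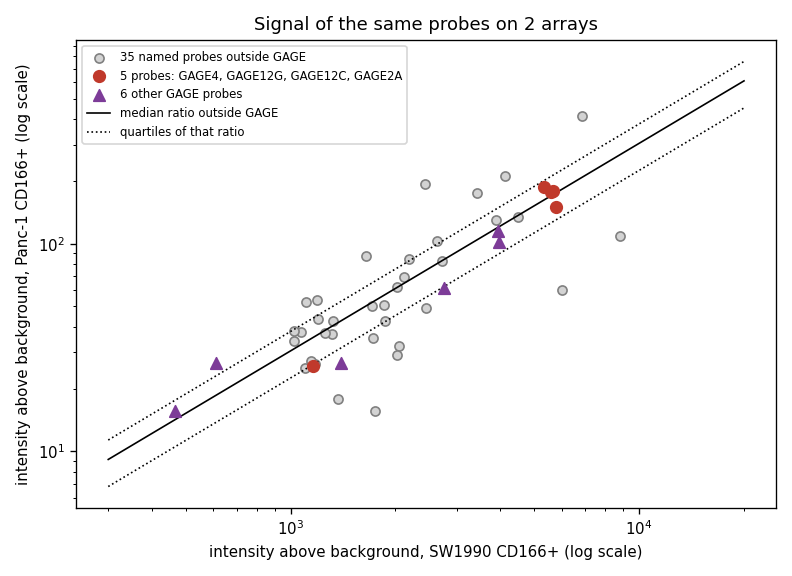
Intensity above background of each probe in SW1990 CD166+ cells (horizontal, log axis) and in Panc-1 CD166+ cells (vertical, log axis), for the 5 probes of the 4 GAGE genes (red), 6 other GAGE probes (purple) and 35 named probes outside the family (grey); the solid line is the median ratio of the grey probes, 3.05%, and the dotted lines are its quartiles. The red points lie along the solid line, with GAGE2A just under the lower quartile.

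Between the lines, SW1990 CD166+ cells were far above Panc-1 CD166+ cells. All 5 probes were over 2-fold higher in SW1990, from 20.5-fold for GAGE12G to 27.3-fold for GAGE12C, where 12.3% of the 18772 probes detected on either array were. In CD166- cells 0 of the 5 probes were over 2-fold higher in SW1990, where 10.1% of probes were, and only GAGE12G and the second GAGE4 probe were detected, in SW1990, at a fold of at least 1.35 and at least 1.14. For each of the 5 probes SW1990 CD166+ cells thus came first and Panc-1 CD166+ cells second. The measured signals of the 2 CD166- populations were up to 1.86-fold apart, and they have no order where neither detected the probe.

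Across both lines, limma with the cell line as a block gave mean log2 folds of 4.92 (SE 1.02) for GAGE12C, 4.86 (SE 0.89) and 4.85 (SE 0.83) for the GAGE4 probes, 4.49 (SE 0.85) for GAGE12G and 3.17 (SE 1.00) for GAGE2A, taken from measured signals with 1 residual degree of freedom. None of the 5 was called, with an adjusted p-value of 0.938 for each by limma with Benjamini-Hochberg adjustment. For 5 of 5 the unadjusted limma p-value was under 0.05, from 0.0013 to 0.0201, and 2 of 2 lines had the same direction. The same fit called 0% of all 17003 probes tested after adjustment, and 2.45% had an unadjusted p-value under 0.05.

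Probes of the remaining GAGE genes, GAGE10 excepted, were also highest in SW1990 CD166+ cells. Of their 8 probes, 7 were detected in SW1990 CD166+ cells, 0 in SW1990 CD166-, 5 in Panc-1 CD166+ and 0 in Panc-1 CD166- cells. In SW1990 6 of these 7 passed 2-fold toward CD166+ cells, and the 7 had a median log2 fold of 4.84. GAGE12H had an intensity of 4046 in SW1990 CD166+, 81.1 in SW1990 CD166-, 175 in Panc-1 CD166+ and 78.9 in Panc-1 CD166- cells, at least 77.3-fold higher in SW1990 CD166+ cells. GAGE12J had 4018, 78.9, 188 and 83.4, and was at least 77.0-fold higher. GAGE12F had 2827, 65.1, 134 and 63.3, and was at least 53.9-fold higher. These 3 genes share the GAGE12C promoter sequence.
GAGE7 is listed in RefSeq only as a synonym of GAGE12F, so the 8 symbols may stand for 7 genes. GAGE12B, GAGE12E and GAGE7 had intensities of 1469.8, 683 and 537 in SW1990 CD166+ cells and were at least 28.7-fold, 13.4-fold and 10.4-fold higher there. GAGE12D, with the same promoter sequence as GAGE12C, reached 131 in SW1990 CD166+ cells and was at least 1.82-fold higher. GAGE10 was undetected on every array, with 65.8, 65.1, 79.2 and 66.5. In Panc-1 only GAGE12J, at least 3.34-fold, and GAGE12H, at least 3.00-fold, were over 2-fold higher among the 5 detected. Probes are compared here only with themselves across arrays, since bead intensities of different probes do not give relative transcript levels. The names GAGE2B and GAGE5, used in the study for 2 probes without a symbol in the annotation, could be tied to ILMN_3245682 and ILMN_1738450 through their averaged values. ILMN_3245682 had 8262, 106, 348 and 75.4 and ILMN_1738450 had 5087, 89.6, 226 and 81.5 on the 4 arrays, the same order as the 5 probes.

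Outside the family, the named genes whose normalized log2 signals lay nearest to the mean of the 5 GAGE probes over the 4 arrays, each profile centred on its own mean, were found by Euclidean distance. The 10 nearest were SLC27A2, BST2, OLR1, SERPINB5, RASIP1, C4BPB, KYNU, CDKN2A, TSPAN8 and PRSS21, at distances of 0.46 to 0.84. With 4 arrays this likeness describes only the shared order of levels, which here is that of genes bright in 1 array. GAGE12G itself lay at 0.18, with no named gene outside the family nearer, and GAGE2A at 1.31, with 20 nearer. Both are part of that mean, so their distances to it are in part set by how it was made. SLC27A2, a fatty acid transporter and acyl-CoA synthetase, had intensities of 2710.4, 70.5, 176 and 72.4 in the order used above. BST2, the interferon-induced tetherin, had 3967, 96.6, 203 and 92.9. The 10 genes lie on chromosomes other than X, and their shares of SW1990 CD166+ signal on the Panc-1 CD166+ array ran from 3.01% to 5.14%. These shares follow in part from the choice of genes, since the distance took in both arrays. Most of the genes are also among the named probes used for the share above. Their closeness to the GAGE share is thus no separate result.

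**Figure D4:**
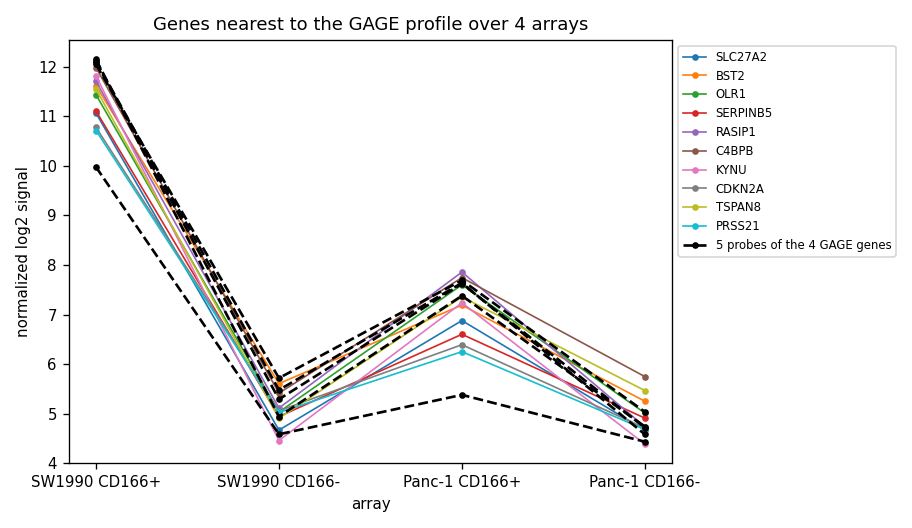
Normalized log2 signal on each of the 4 arrays (1 array a population) for the 5 probes of the 4 GAGE genes (black, dashed) and for the 10 named genes outside the family nearest to their mean (coloured); lines join the values of 1 probe and carry no order in time. All profiles are highest in SW1990 CD166+ and second highest in Panc-1 CD166+ cells.

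Most genes that flank the GAGE array on the X chromosome were undetected or less than 2-fold apart between the SW1990 populations. Of the 20 nearest genes with a probe, 10 on each side, 9 were detected on at least 1 array. Of these 9, 1 was higher and 2 lower by over 2-fold in SW1990 CD166+ cells, against 13.6% higher and 14.2% lower of all genes detected in SW1990. With 9 genes these counts do not stand apart from those shares. The higher gene was WDR45, at an intensity of 487 against 201. PPP1R3F, the nearest on the GAGE10 side, was lower in CD166+ cells, at 96.0 against 171, as was CLCN5 on the far side, at 83.1 against 136.5. PAGE1 and PAGE4, relatives of GAGE and the nearest genes on the other side, were undetected on all 4 arrays, with intensities of 55.7 to 65.0. No flanking gene was over 2-fold apart in Panc-1, against 1.01% of all genes detected there in either direction.

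**Figure D5:**
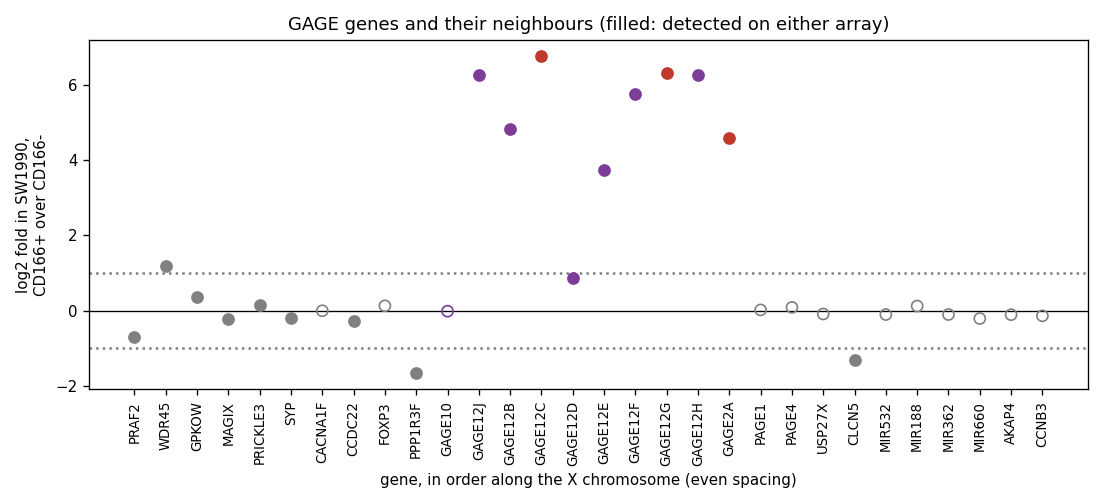
Log2 fold of CD166+ over CD166- cells in SW1990 for 10 annotated GAGE genes with a known place (red for GAGE12C, GAGE12G and GAGE2A, purple for the others) and for the 10 nearest genes on each side (grey), in their order along the X chromosome and evenly spaced; filled symbols were detected on at least 1 of the 2 arrays and dotted lines mark 2-fold. GAGE folds reach 6.77, and among the grey points only WDR45, PPP1R3F and CLCN5 pass a dotted line.

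Other cancer-testis genes of the X chromosome were mostly undetected on these arrays. Of 82 such genes with a probe 72 were undetected on all 4 arrays. In SW1990 CD166+ cells 4 of the 82 were detected, against 9827 of all 20044 genes. In SW1990 2 of the 6 detected on either array passed 2-fold toward CD166+ cells, against the 13.6% of all genes. The 6 detected in SW1990 had a median log2 fold of 0.07, against -0.03 over all genes. CT83, which encodes a membrane protein of testis and tumours, had an intensity of 775 in SW1990 CD166+, 66.3 in SW1990 CD166-, 80.1 in Panc-1 CD166+ and 64.1 in Panc-1 CD166- cells, at least 15.3-fold higher in SW1990. SPANXN3 had 163, 78.9, 70.3 and 72.2, at least 2.53-fold higher. Of 12 MAGEA genes 1 was detected in SW1990 CD166+ cells, at no more than 100.2, and of 6 PAGE, 4 XAGE and 5 CT45 genes none was. A further list of cancer-testis and germ-line genes, autosomal but for FATE1, RHOXF1 and RHOXF2, had 47 with a probe and 14 detected in SW1990 CD166+ and 16 in SW1990 CD166- cells. In SW1990 3 of 17 detected were higher and 2 lower by over 2-fold in CD166+ cells, which is near the 13.6% and 14.2% of all genes, and the 17 had a median log2 fold of -0.25. The largest differences were those of OIP5, which helps to load the centromeric histone (2680 against 524, 3.96-fold higher), and SPAG9, a signalling scaffold (249 against 535). The 9 germ cell markers, among them DDX4, DAZL and the protamines PRM1 and PRM2, were undetected on all 4 arrays, with a summed intensity of 608 to 638.

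Among 38 genes that encode DNA methyltransferases, methyl-CpG readers and chromatin factors known to act on germ-line genes, 33 were detected in SW1990, of which 2 were higher and 3 lower by over 2-fold in CD166+ cells. Over all genes these shares were 13.6% and 14.2%, so the list did not stand above the background, and its median log2 fold was -0.23. EZH2, the histone H3 lysine 27 methyltransferase, had an intensity of 334 in SW1990 CD166+ and 781 in SW1990 CD166- cells. MBD4, a methyl-CpG-binding glycosylase, had 569 and 1192. MGA, which binds the E-box with MAX in a repressor complex with E2F6, had 239 and 111, a 2.61-fold difference. In Panc-1 0 of the 31 genes of this list that were detected were over 2-fold apart, with 262 against 304 for EZH2 and 156 against 158 for MGA.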

How the data were processed

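BeadStudio 3.2.3 summarised the scans, and the authors deposited per-probe intensity without normalization, beside a detection p-value. A second deposited table holds the same intensity values multiplied by 1 factor per array (0.857, 1.09, 1.05 and 1.04). The first table was corrected for background and quantile normalized with neqc of limma 3.58.1 (R 4.3.3) at an offset of 16. On the log2 scale the array floors were 5.29, 5.38, 5.22 and 5.28. Platform annotation gave symbols; 8 probes had several and 17196 none. Promoters were aligned with Biopython 1.88. Probe sequences were not used here.

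With 1 array a population, calls within and between lines had no test, and that number limits their precision. The fit across lines (lmFit, eBayes) took probes detected on at least 2 arrays, blocked by cell line, since the arrays of a pair share a line; as a check, the Panc-1 arrays correlated best with each other and the SW1990 arrays did not. With 1 residual degree of freedom, its p-values rest on how far apart the CD166+ to CD166- differences of the 2 lines lie, along with a variance prior over all probes tested. They measure no replicate spread. That gap may be technical or may come from the lines, which was not tested. For this comparison, simulated data on 17003 probes (noise SD 0.295) gave calls for 49% of probes changed by 1 on the log2 scale and for 100% of those changed by 4. The simulation gave every probe the same noise. The 5 GAGE probes had larger SEs, of 0.83 to 1.02, so these rates do not hold for them.

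Members, gene lists and comparisons were chosen with earlier results of these data known. The rule named every probe of the 4 genes, up to 4 genes a list by fold in SW1990 past 2-fold, 10 flanking genes a side, the 10 nearest profiles and ALCAM. Alternatives changed the background, offset (50), scaling, table, detection threshold (0.05), floor, filter on dim probes, fold threshold (1.5 and 3) and shared signal, and for limma also the block, the variance prior, the test, the probe a gene and the line left out.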

Additional observations from a re-analysis of the deposited data

How the results depend on the processing

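In SW1990, 5 of 5 GAGE probes kept their call under every alternative run, as did 5 of 5 between the lines in CD166+ cells and 0 of 5 in CD166- cells. The SW1990 folds were 11.2 to 48.3 with no background correction, 13.8 to 60.6 at an offset of 50, 30.2 to 149 with median scaling and, in the scaled table, 10.7 to 50.9. Median scaling moved the median log2 fold of all detected probes in SW1990 to 0.17 and the scaled table to -0.21. Of all SW1990 calls, 48.1% were toward CD166+ cells and 65.6% with median scaling; of all Panc-1 calls, 59.6% and 75.9% in the scaled table. Between the lines 49.4% of calls in CD166+ cells were toward SW1990, with 66.4% under median scaling and 36.3% in the scaled table, and in CD166- cells 50.1%, with 34.7% in the scaled table. The share of all probes called higher ran over the alternatives from 4.69% to 22.3% in SW1990 and from 0.197% to 2.57% in Panc-1. The low ends are the main calls, 2218 and 93, counted over all 47315 probes with no filter on dim probes. The high ends come from the 1.5-fold threshold.

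In Panc-1 the 4 calls kept their side except under subtraction of the shared SW1990 CD166+ signal. It left 0 at its median, 1 at its lower quartile and 0 at its upper quartile. The quartiles were chosen after seeing the data. As the median share was close to that of the GAGE probes, the 0 there follows from it. Limma called 0 of 5 under each alternative, with adjusted p-values of 0.634 to 1.00. With no cell line block (no replicate block) the adjusted p-value was 1.00 and the block changed no other call. The methods' t-test gave 0 of 5 before and after Benjamini-Hochberg adjustment. The fit on probes detected on all 4 arrays held none of the 5, and that after subtraction 2. Leaving out a line left log2 folds with no test, 5.39 to 7.21 for SW1990 and 0.95 to 3.06 for Panc-1. Signals near background in CD166- cells made 8 of the 10 folds lower bounds.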
